A study of Mus musculus with 6 samples.

Results

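The transcripts of 10 gut peptide hormones were measured in mGLUTag cells, which are an immortalized mouse model of the intestinal L-cell. Members were taken by name, as all probes whose symbol on the array is GCG, CCK, PYY, SCT, NTS, GIP, SST, IAPP, GHRL or TAC1, which gave 10 of the 30854 symbols on the array and 13 of its 45281 probes. Nts, Ghrl and Tac1 each had 2 probes and the other hormones had 1. The line is male by the study's description and is 1 immortalized population, so the arrays carry no animal-to-animal spread. Both groups were serum-starved, treated with forskolin, which raises cAMP and synchronizes the circadian clock, and returned to growth medium. Total RNA was taken 4 h (n = 3) or 16 h (n = 3) after synchronization, which the study picked as the high and the low point of Arntl, the gene of the clock factor BMAL1. The question was which hormone genes the line transcribes and whether they differ between these times.

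Enteroendocrine cells are scattered through the gut epithelium, and each makes a small set of peptide hormones as larger precursors that are cut and stored in dense-core granules. The L-cell is defined by proglucagon, the product of Gcg, from which GLP-1, GLP-2 and oxyntomodulin are cut, and in the distal gut it often makes peptide YY as well. Secretin (Sct), cholecystokinin (Cck) and neurotensin (Nts) are made by neighbouring cell types and by many L-cells. GIP marks the K-cell, somatostatin (Sst) the D-cell, ghrelin (Ghrl) the gastric X-cell and substance P (Tac1) some enterochromaffin cells and enteric neurons. Amylin (Iapp) is co-secreted with insulin by the pancreatic β-cell.

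To show the regulatory sequence in front of the genes that the results turn on, RefSeq promoter windows (build GRCm38.p6, from 250 bases before to 50 bases after the transcript start, 5′ to 3′ on the gene's strand) are given for the hormones with the brightest probes and for those whose window held a clock or cAMP motif. All 10 genes had at least 1 window. Capitals mark the E-box CACGTG, to which BMAL1 binds, the cAMP response element TGACGTCA, or the D-box TTATGTAA, searched on both strands.
Gcg (chr2:62483604-62483903, minus strand): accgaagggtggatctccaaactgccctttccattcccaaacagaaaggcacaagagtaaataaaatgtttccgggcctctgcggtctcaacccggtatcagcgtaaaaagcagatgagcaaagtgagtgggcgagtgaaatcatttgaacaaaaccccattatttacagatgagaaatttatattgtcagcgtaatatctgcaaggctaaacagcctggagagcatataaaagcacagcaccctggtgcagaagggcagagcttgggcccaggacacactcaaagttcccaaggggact
Sct (chr7:141279084-141279383, minus strand): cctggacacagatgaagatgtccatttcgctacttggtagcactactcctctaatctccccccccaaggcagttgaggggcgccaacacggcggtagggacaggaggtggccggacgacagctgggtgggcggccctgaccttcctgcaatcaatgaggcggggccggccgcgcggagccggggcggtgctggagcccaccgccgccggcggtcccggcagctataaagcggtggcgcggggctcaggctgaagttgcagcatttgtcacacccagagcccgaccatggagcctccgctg
Cck (chr9:121495645-121495944, minus strand): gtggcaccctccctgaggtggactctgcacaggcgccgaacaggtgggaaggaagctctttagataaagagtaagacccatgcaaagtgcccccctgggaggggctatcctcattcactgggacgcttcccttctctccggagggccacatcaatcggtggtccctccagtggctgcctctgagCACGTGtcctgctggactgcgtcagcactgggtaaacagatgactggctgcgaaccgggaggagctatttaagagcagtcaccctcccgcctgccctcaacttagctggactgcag
Tac1 (chr6:7554811-7555110, plus strand): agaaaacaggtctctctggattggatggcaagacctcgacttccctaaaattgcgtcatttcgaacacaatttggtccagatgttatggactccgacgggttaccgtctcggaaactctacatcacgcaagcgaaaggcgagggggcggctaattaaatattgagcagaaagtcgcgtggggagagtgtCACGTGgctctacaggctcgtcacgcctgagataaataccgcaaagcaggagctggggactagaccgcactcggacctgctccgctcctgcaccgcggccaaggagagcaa
Sst (chr16:23890795-23891094, minus strand): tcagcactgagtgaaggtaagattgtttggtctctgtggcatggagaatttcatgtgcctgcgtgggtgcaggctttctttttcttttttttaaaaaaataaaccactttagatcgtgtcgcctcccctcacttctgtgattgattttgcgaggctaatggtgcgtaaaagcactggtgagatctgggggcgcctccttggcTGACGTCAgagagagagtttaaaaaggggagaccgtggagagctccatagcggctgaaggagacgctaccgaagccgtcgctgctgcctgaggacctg

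The E-box was found in the windows of Cck and Tac1, at 66 and 61 bases before the start, and in 7.15% of all 32851 windows. The full cAMP response element was found only in the window of Sst among the 10 hormones, 48 bases before the start, and in 1.79% of all windows. The D-box was found in none of the 10 and in 0.938% of all windows. The windows of Gcg and Sct held none of these motifs. Noncanonical E-boxes, the kind of site at which the study measured BMAL1 binding in the Scgn promoter, were not searched for. The shorter letters TGACG, a part of the response element chosen for the search after the windows had been seen, so that a full element is counted again, were found in the windows of Cck, Nts, Sst and Tac1 and in 20.8% of all windows. Base composition differed among the brightest hormones, with 66.7% G and C in the Sct window and 47.0% in that of Gcg, against a median of 52.7%. A match describes these letters only, and no binding was measured in these samples.

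Of the 10 hormones, 5 had a probe above background on all 6 arrays: Sct, Gcg, Cck, Nts and Tac1. Background was set for each array from its own values below 0, as a limit between 9.20 and 14.0 intensity units. Gip lay above it on 2 of 6 arrays, and Pyy, Sst, Iapp and Ghrl lay above it on none. By probe, 5 of 13 were above the limit on all arrays, 1 on some and 7 on none. The same 5 probes were above a stricter limit, the largest below-zero value of each array with its sign turned. Over all probes, 14941 of 45281 lay above the limit on all arrays. Precision is limited by the number of arrays.

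**Figure D1:**
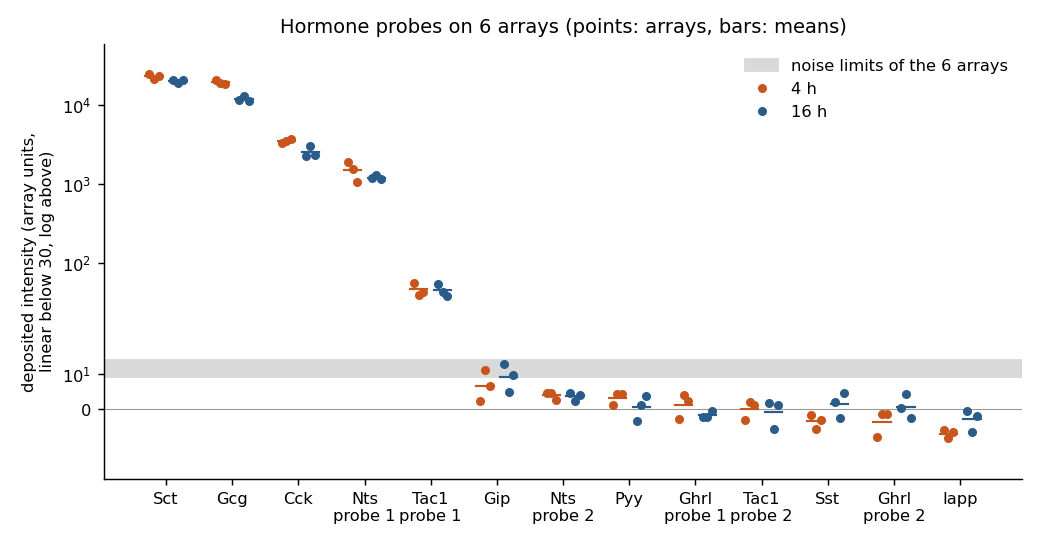
Deposited intensity of the 13 hormone probes on each array, in array units, on an axis that is linear below 30 and logarithmic above. Points are arrays, short bars are means of 3 arrays, and the grey band spans the background limits (9.20 to 14.0). Sct and Gcg read 11298.2 or more on every array, Tac1 probe 1 lies between 38.1 and 56.2, and 7 probes lie below the band on all arrays.

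Sct, the gene of secretin, had the brightest probe of the 10 hormones. Its deposited intensity was 25127.7, 21726.5 and 23668.3 on the 4 h arrays and 20674.7, 19207.9 and 21042.9 on the 16 h arrays. All 4 h values lay above all 16 h values. Among all 45281 probes it ranked between 32 and 53 on the single arrays, and by mean intensity it stood beside ribosomal and respiratory chain transcripts such as Rpl41, Ndufa4 and Atp5g3.

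Gcg, the gene that defines the L-cell, followed. Its single probe read 21125.6, 18961.1 and 18607.2 at 4 h and 11525.1, 12947.2 and 11298.2 at 16 h, again with no overlap between the time points. It ranked between 71 and 157. The Sct probe was brighter than the Gcg probe on each of the 6 arrays, by 1.15 to 1.86 times. Brightness also depends on how well each probe binds, so this is an order of probes and not of transcript number.

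Cck and Nts, whose peptides act on gallbladder contraction and on gut motility, formed the next step. Cck read 3319.0, 3533.8 and 3786.3 at 4 h and 2277.8, 3019.0 and 2374.8 at 16 h, between ranks 803 and 1025. The brighter Nts probe (ILMN_2929906) read 1918.0, 1547.0 and 1073.5 at 4 h and 1184.1, 1300.0 and 1152.9 at 16 h, between ranks 1683 and 2825. The intensities of Sct and Gcg overlapped over the 6 arrays but not within a time point, and those of Gcg, Cck and Nts did not overlap at all. The spread of Nts at 4 h (SD 423, against 77.5 at 16 h) came with a low value in 4 h replicate 3.

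Tac1, which encodes the precursor of substance P and neurokinin A, was far dimmer. Its brighter probe (ILMN_1251000) read 56.2, 39.8 and 43.0 at 4 h and 54.8, 42.5 and 38.1 at 16 h, between ranks 10966 and 13041. These values lay above the background limit but within a range where an added constant in the processing shrinks changes. The other Tac1 probe lay between -5.6 and 2.0, so that the probes of this gene disagreed on whether it was detected.

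The remaining hormones were at or below background. Gip read 2.3, 11.2 and 6.7 at 4 h and 12.9, 4.9 and 9.9 at 16 h, and passed the background limit in 16 h replicates 1 and 3 only, and on no array under the stricter limit. Pyy, which many distal L-cells make beside proglucagon, lay between -3.4 and 4.4. Sst lay between -5.5 and 4.8 and Iapp between -8.2 and -0.4. The Ghrl probes lay between -7.9 and 4.5 and between -2.7 and 4.0. The second Nts probe (ILMN_1221615) lay between 2.3 and 4.8 while the first was bright, so that a dim probe alone does not show that a transcript is missing. For Gip, Pyy, Sst, Iapp and Ghrl no change between the times is given.

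The arrays were not equally bright, which sets how the time points can be compared. The mean intensity over all probes was 291 to 354 on the 4 h arrays and 216 to 246 on the 16 h arrays. A higher mean at 4 h was found for 98.2% of the probes detected on all arrays, and their log2 ratio had a median of 0.55. Every 4 h value lay above every 16 h value for 49.2% of them, so the separation of Sct, Gcg and Cck in deposited intensity is shared by a large part of the array. The exact two-sided permutation test on deposited intensity gave p = 0.1 for Sct, Gcg and Cck, below which a design of 3 against 3 cannot go, p = 0.4 for Nts and p = 0.7 for Tac1. In these bulk samples fewer cells making a hormone and less hormone RNA per cell cannot be told apart.

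The hormones had unequal ratios in deposited intensity. The ratio of mean intensity at 4 h to that at 16 h was 1.64 for Gcg, 1.39 for Cck, 1.25 for Nts, 1.16 for Sct and 1.03 for Tac1, against 1.46 for the median detected probe. With all arrays used, Gcg was thus the only one of the 5 above that median ratio. Without 16 h replicate 2 the Cck ratio was 1.52, and leaving out single arrays gave 0.917 to 1.15 for Tac1. These factors are descriptions of brightness and carry the difference between the arrays.

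No hormone probe passed the threshold after quantile normalization. That step forces one distribution on the arrays and reports each probe relative to the others. By limma with Benjamini-Hochberg adjustment over all 45281 probes, 0 of 13 hormone probes were called at 0.05, where 0.00883% of all probes (4 in total) were called. An unadjusted limma p under 0.05 was obtained for 2 of the 13, Gcg and the brighter Tac1 probe, where 5.41% of all probes and 10.9% of the probes detected on all arrays were below it. These were also the 2 of 5 detected hormones whose normalized values did not overlap between time points, which held for 11.6% of the probes detected on all arrays.

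Gcg had a normalized log2 intensity of 13.99, 14.12 and 14.13 on the 4 h arrays and 13.60, 13.83 and 13.76 on the 16 h arrays. All 4 h values lay above all 16 h values. The mean was 14.08 ± 0.08 (SD, n = 3) against 13.73 ± 0.12 (SD, n = 3), a log2 difference of 0.35 (SE 0.081, 95% interval 0.17 to 0.53, 1.28-fold), with a limma adjusted p of 0.453. Left unnormalized between arrays, Gcg differed by 0.71, and after median scaling by 0.62 (limma adjusted p = 0.0309 in both), values that include a shift of 0.39 and 0.30 in the median detected probe. With linear scaling on the detected probes it was 0.18. Over 11 other ways of processing that kept all arrays, the adjusted p was between 0.0309 and 0.905, and Gcg was higher at 4 h in all of them.

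For Sct, the brightest hormone, the time points overlapped. Its normalized log2 intensity was 14.29, 14.35 and 14.45 at 4 h and 14.45, 14.42 and 14.50 at 16 h, with the lowest values at 4 h. The log2 change was -0.09 (SE 0.070, 95% interval -0.25 to 0.06, limma adjusted p = 0.953). The direction turned to 0.21 without normalization between arrays and to 0.12 after median scaling, both below the shift of the median detected probe in those settings, and it was -0.32 with linear scaling.

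Cck gave 11.37, 11.69 and 11.69 at 4 h and 11.37, 11.74 and 11.61 at 16 h. Replicate 1 was the lowest array at both times, and the log2 change was 0.0087 (SE 0.12, 95% interval -0.26 to 0.28, limma adjusted p = 0.998). Left unnormalized between arrays, Cck differed by 0.47 (limma adjusted p = 0.0574), and after median scaling by 0.38, where the median detected probe shifted by 0.39 and 0.30. The Cck change was -0.053 with linear scaling, and -0.093 to 0.11 when single arrays were left out. Nts gave 10.61, 10.56 and 9.82 at 4 h and 10.48, 10.54 and 10.64 at 16 h. Its log2 change of -0.22 (SE 0.18, 95% interval -0.64 to 0.19, limma adjusted p = 0.958) rested on 4 h replicate 3, without which it was 0.03. In the mean of both Nts probes, of which the second was at background, the change was -0.12.

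Tac1 gave 6.66, 6.70 and 6.59 at 4 h and 6.95, 6.81 and 6.88 at 16 h, with all 4 h values below all 16 h values. The log2 change was -0.23 (SE 0.070, 95% interval -0.39 to -0.07, limma adjusted p = 0.716). Its deposited intensity was nearly level, at 46.3 ± 8.69 (SD, n = 3) and 45.1 ± 8.66 (SD, n = 3), so the lower normalized value stands against arrays that were brighter at 4 h. The log2 change was -0.54 without background correction, -0.03 with median scaling and 0.06 with no between-array normalization. In the mean of both Tac1 probes, of which the second was at background, it was -0.10.

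**Figure D2:**
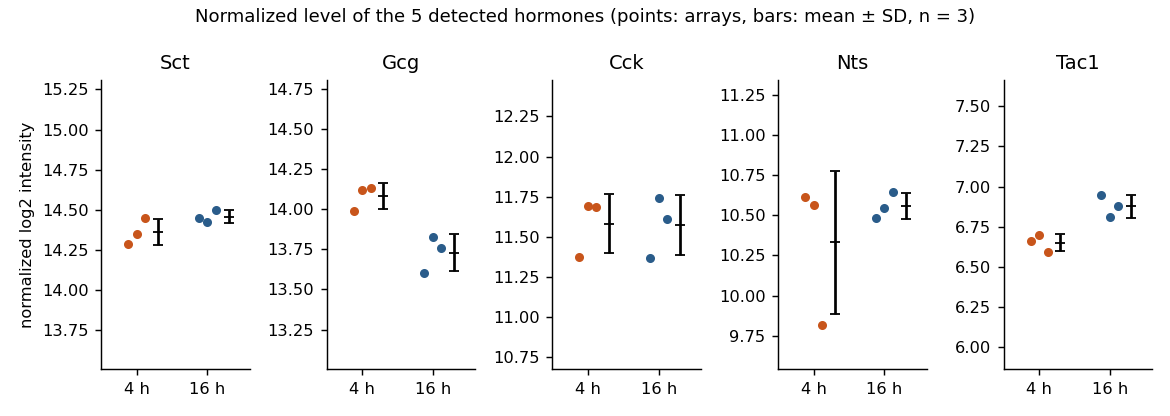
Normalized log2 intensity of the 5 detected hormones, each panel spanning the same range of log2 units around its own mean. Points are arrays and bars are the mean ± SD of 3 arrays. Gcg is separate and higher at 4 h (14.08 against 13.73), Tac1 is separate and lower (6.65 against 6.88), and Sct, Cck and Nts overlap.

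To compare the hormones without any normalization between arrays, each was divided by the Gcg probe of the same array. This removes a factor common to all probes of an array, but not the part of the brightness difference that varied with intensity, so the ratios of the dimmer Cck, Nts and Tac1 to Gcg still carry it. The part that this plays in those ratios was not tested. The log2 ratio of Sct to Gcg was 0.25, 0.20 and 0.35 on the 4 h arrays and 0.84, 0.57 and 0.90 on the 16 h arrays. The means were 0.26 ± 0.08 and 0.77 ± 0.18 (SD, n = 3), a difference of -0.51, with no overlap (p = 0.1 by an exact permutation test, two-sided, which can give no smaller value here). On the linear scale, Sct read 1.15 to 1.27 times Gcg at 4 h and 1.48 to 1.86 times at 16 h. The ratio of Nts to Gcg differed by -0.43 and that of Tac1 by -0.68, both without overlap (exact permutation p = 0.1). Without 4 h replicate 3 the Nts difference was -0.24. The ratio of Cck to Gcg differed by -0.23 and overlapped (exact permutation p = 0.2), and without 4 h replicate 1 the difference was -0.13.

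These ratios were lower on every 4 h array for 3 of the 4 hormones, where 17.2% of the other 14940 detected probes gave this. All share the same Gcg values and so are not independent of each other. Over those probes the median difference in the log2 ratio to Gcg was -0.18, and 77.1% had a lower mean ratio at 4 h. A ratio shows unequal change of a pair of probes only.

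**Figure D3:**
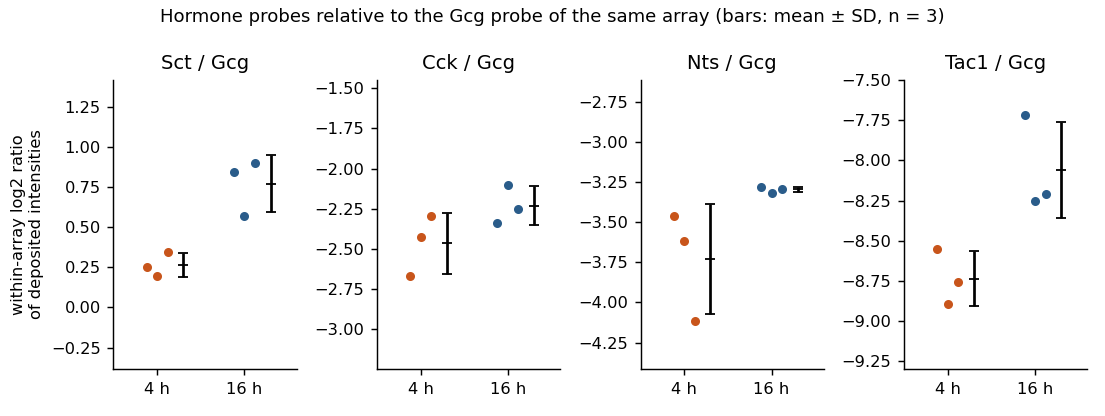
Log2 ratio of the deposited intensity of Sct, Cck, Nts and Tac1 to that of Gcg on the same array, each panel spanning the same range of log2 units. Points are arrays and bars are the mean ± SD of 3 arrays. The time points are separate for Sct (0.26 against 0.77 in the mean), Nts and Tac1 and overlap for Cck.

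Against the median detected probe of the same array, a reference that does not use Gcg, the log2 ratio of Gcg was 6.52 ± 0.20 at 4 h and 6.38 ± 0.14 at 16 h (SD, n = 3). This difference of 0.14 overlapped between time points (exact permutation p = 0.5). That of Sct was 6.79 ± 0.14 and 7.15 ± 0.23, a difference of -0.36 without overlap (exact permutation p = 0.1), and that of Tac1 differed by -0.53 without overlap (exact permutation p = 0.1). Cck differed by -0.09 and Nts by -0.29, both with overlap (exact permutation p = 0.7 and p = 0.5). Single arrays decided several of these values. The Gcg difference was 0.03 without 4 h replicate 2, the Sct difference was -0.23 without 16 h replicate 3, the Nts difference was -0.015 without 4 h replicate 3 and the Cck difference was 0.039 without 4 h replicate 1. The values were separate for 2 of the 5 hormones, where 11.4% of detected probes gave this. Ratios to this reference also carry the part of the brightness difference that varied with intensity, also for Sct and Gcg. Its size in them was not tested. In all, 9 within-array ratios were compared.

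The brightest probes had smaller ratios between the times than the median detected probe, so Gcg and Sct were also set beside probes of their own brightness, a comparison chosen after the values had been seen. Among the 100 probes with the highest mean intensity, the log2 ratio of mean intensity at 4 h to 16 h had a median of 0.31 and a range of 0.10 to 0.71. Gcg, ranked 91 of these by brightness, had the highest ratio of the 100, 0.71. Sct, ranked 42, was the 92nd from the highest, at 0.21. After quantile normalization Gcg was again first of the 100 and Sct was 86th. Among the 500 brightest probes, Gcg was 10th and Sct 471st in deposited intensity. These ranks are descriptions and carry no test.

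**Figure D4:**
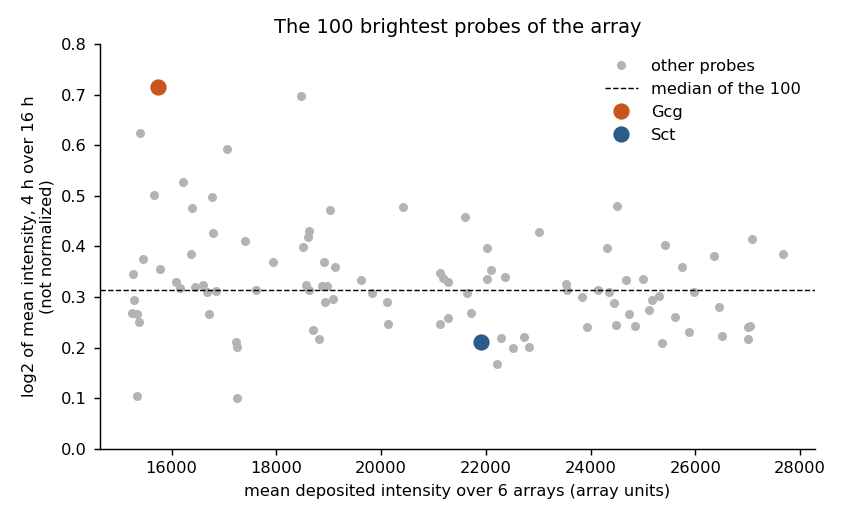
The 100 probes with the highest mean deposited intensity, with that mean on the horizontal axis and the log2 ratio of mean intensity at 4 h to 16 h, not normalized, on the vertical axis. Each point is a probe and the dashed line is their median (0.31). Gcg has the highest ratio (0.71) and Sct (0.21) lies below the median.

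Correlation with the normalized Gcg profile over the 6 arrays was ranked among those of the 14941 detected probes whose name matched a RefSeq symbol. The genes most like Gcg were Ttyh1 (Pearson r = 0.992), Clic4 (r = 0.986) and Spsb1 (r = 0.984). Over only 6 arrays in 2 groups, 44 probes with a matched symbol reached r above 0.95, and no test was made. Among the hormones, r with Gcg was 0.44 for Cck, -0.46 for Nts, -0.50 for Sct and -0.95 for Tac1.

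Hormones outside these 10 were then considered, from a list of 53 other peptide hormone and neuropeptide genes, of which 52 had a probe. Of these, 15 lay above the background limit on all arrays, 9 on some and 28 on none, Ins1 and Ins2 among the last. None was called in either direction by limma. An unadjusted p under 0.05 was obtained for 6 of 52, against 5.41% of all probes and 10.9% of those detected on all arrays. Among the 6, Ghrh alone was above background on no array (it is named here because its values had been seen). Among the 15 detected, 5 were higher and 10 lower at 4 h in the fitted value, with a median log2 change of -0.08 against 0.0014 for all detected probes. The brightest was Gast, the gene of the stomach hormone gastrin, which read 2651 ± 480 in the 4 h group and 2358 ± 19.2 in the 16 h group (SD, n = 3 each) in deposited intensity. After quantile normalization, which takes out the higher brightness of the 4 h arrays, Gast had a log2 difference of -0.33 (SE 0.16, limma adjusted p = 0.920). In the lists that follow, means ± SD are likewise deposited intensities, and log2 differences are on the normalized scale. Cartpt, the gene of the CART peptide, read 1514 ± 102 and 1142 ± 197. Rln1 (482 ± 130 and 448 ± 12.2), Pdyn (360 ± 28.5 and 285 ± 42.6) and Guca2a (249 ± 28.0 and 168 ± 11.2) followed.

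Insl5, which encodes insulin-like peptide 5, a hormone of colonic L-cells, was the member of this list with the smallest p. It read 302 ± 62.2 at 4 h and 97.3 ± 15.3 at 16 h (SD, n = 3 each), with no overlap. Its normalized log2 change was 0.77 (SE 0.16), with a limma adjusted p of 0.371. The study's own array comparison, whose normalization is not stated, lists Insl5 as significantly higher at 4 h, with a larger log2 change. Nmu, the gene of neuromedin U, had a normalized log2 difference of -0.38 (SE 0.099, limma adjusted p = 0.567), and Calca, the gene of calcitonin and CGRP, one of -0.19 (SE 0.068, limma adjusted p = 0.812). Of the 4 probes of Calca 2 were detected on all arrays, and the mean difference over its probes was -0.03.

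Transcripts for the machinery that turns these precursors into hormones were detected in part. Of 13 listed genes for peptide processing and inactivation, 12 had a probe and 7 lay above the background limit on all arrays, with 0 called by limma. An unadjusted p under 0.05 was obtained for 3 of 12, against 5.41% of all probes and 10.9% of those detected on all arrays. Over the 7 detected on all arrays the median log2 change was 0.04, and 0.01 with the mean of each gene's probes. Cpe, the carboxypeptidase that trims basic residues after cleavage, was the brightest, at 11438 ± 1589 at 4 h and 7405 ± 785 at 16 h (SD, n = 3). Scg5, the chaperone of the convertase PC2, read 6867 ± 1116 and 4857 ± 278, and Qpct and Ece1 read between 780 and 1640 in the mean. Pcsk2, the gene of PC2, which cuts proglucagon to glucagon in α-cells, read 349 ± 75.8 and 332 ± 56.2 in deposited intensity. Its normalized log2 difference was -0.41 (SE 0.15, limma adjusted p = 0.833), and -0.18 in the mean of its 5 probes. Pcsk1n, which encodes the inhibitor of PC1/3, had a normalized log2 difference of -0.37 (SE 0.15, limma adjusted p = 0.877). Pcsk1 itself, the gene of PC1/3, the convertase that cuts GLP-1 from proglucagon, passed the limit on 1 of 6 arrays by the brighter of its 2 probes. Pcsk1 was named after its values had been seen, and a dim probe alone does not show that its transcript is missing. Dpp4, whose product inactivates GLP-1, read 5.4, 5.6 and 8.7 at 4 h and 10.4, 13.1 and 11.6 at 16 h, above the limit on the 3 arrays of 16 h and on none of 4 h. It is 1 of the 3 genes counted at an unadjusted p under 0.05 and entered only through the group in which it is high, so no change is given for it.

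Of 27 receptor genes for the hormones, 8 lay above the background limit on all arrays and 19 on none, with 0 called by limma. Glp1r, Glp2r, Gcgr, Sctr, Cckar and Cckbr were among the 19. An unadjusted p under 0.05 was obtained for 3 of 27, against 5.41% of all probes and 10.9% of those detected on all arrays. Over the 8 detected on all arrays the median log2 change was 0.05, and 0.11 with the mean of each gene's probes. Sort1, the neurotensin-binding sorting receptor sortilin, was the brightest (1848 ± 385 at 4 h and 1113 ± 305 at 16 h). Sstr2, a receptor for somatostatin, read 241 ± 23.1 and 93.7 ± 14.5 in deposited intensity, without overlap. Its normalized log2 difference was 0.56 (SE 0.10, limma adjusted p = 0.247). The study's own array comparison lists Sstr2 as significantly higher at 4 h, with a larger log2 change. The second Sstr2 probe was not detected on all arrays, and the mean over both was 0.24. The other somatostatin receptor detected, Sstr5, read 188 ± 48.8 and 117 ± 29.0. Ramp3 and Ramp2, partners of the amylin receptor, read 341 ± 73.3 and 57.0 ± 4.36 at 4 h and 225 ± 62.8 and 38.0 ± 12.4 at 16 h. Npy1r, a receptor for peptide YY, had a normalized log2 difference of 0.16 (SE 0.066, limma adjusted p = 0.891) and Npy4r one of -0.43 (SE 0.11, limma adjusted p = 0.568).

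The label of the line was checked against marker genes. Of 23 L-cell and enteroendocrine markers 18 lay above the background limit on all arrays, namely the hormones Gcg, Sct, Cck, Nts and Insl5, the granule proteins Chga, Chgb, Scg2 and Scg3, the calcium-binding protein Scgn, the transcription factors Isl1, Neurod1, Nkx2-2, Insm1, Rfx6, Foxa2 and Etv1, and the lipid receptor Gpr119, and only Pyy was above it on none. The summed intensity of that list was between 77021 and 90299 on the 4 h arrays and between 57101 and 62775 on the 16 h arrays. Sct and Gcg are part of this sum, which also carries the higher brightness of the 4 h arrays. Some markers of related cells were also detected. Of 6 enterochromaffin markers 2 were (Ddc and Tac1), with Tph1, the enzyme that starts serotonin synthesis, on none. Of 8 β-cell markers 4 were (Pdx1, Nkx6-1, G6pc2 and Mafa), with Ins1, Ins2 and Iapp on none. Of 6 α-cell markers 3 were (Gcg, Ttr and Irx2), and of 4 D-cell markers 2 were (Rbp4 and Hhex), with Sst on none. Vil1 was the 1 enterocyte marker of 7 with a probe, Tff3 and Spink4 were the 2 goblet and Paneth markers of 6, and Col1a1 was the 1 fibroblast marker of 6. None of 6 immune markers was above the limit on any array, and their summed intensity was between 1.80 and 9.10 at 4 h and between -5.10 and 0.30 at 16 h. That of the α-cell list, which also holds Gcg, was between 32587 and 36381 at 4 h and between 23099 and 27838 at 16 h. No gene of the L-cell list was called between the times by limma, and 5 of 23 had an unadjusted p under 0.05, against 5.41% of all probes and 10.9% of those detected on all arrays.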

How the data were processed

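Total RNA of 6 samples of synchronized mGLUTag cells was hybridized by the authors to a mouse WG-6 V2 Illumina BeadChip. The deposited values are linear intensities per probe with background already subtracted and no normalization between arrays. Values below 0 made up 31.2% to 34.0% of each array. Detection p-values, scanner settings, slides and the genome build behind the probes are not given in the sources used here, and neither is whether replicates came from separate cultures, so p-values measure the spread between these samples.

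Analyses used R 4.3.3, limma 3.58.1 and Python 3.11.15. Intensities were corrected with normexp (offset 50, which shrinks changes of dim probes), quantile normalized on the log2 scale and fitted with lmFit and eBayes with time point as the only term. P-values were two-sided and adjusted over all 45281 probes by the Benjamini-Hochberg method. The procedure was tested on simulated data, and no outcome of that test is given or relied on here. The background limit was set per array by turning the sign of all values below 0 and taking their 99th percentile. Exact permutation tests compared 3 arrays with 3. For a listed gene with several probes, the one brightest after normalization was used. Names followed RefSeq (27760 probes by symbol, 7994 by synonym, 9527 unmatched). Sequences and coordinates are those of RefSeq promoters (GRCm38.p6). Protein sequences were not used here.

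The members and lists were chosen with earlier results of these data known. List genes named with values were the 6 brightest and the 3 with the smallest p (above the limit on 3 or more arrays). Genes named as above the limit on no array were not chosen by this rule. Marker genes were named where they lay above the limit on all arrays or, if they define a type, on none, and the 3 genes most like Gcg by correlation were named. Same-numbered arrays were checked for pairing by the correlation of their deviations from the group means (0.25, 0.17 and -0.49), so the numbers were not taken as pairs. Alternatives covered background correction, offset, normalization, filter, variance model, array weights and replicate block. They also covered the side of the 18S ribosomal RNA signal, high or low, and leaving out each array. The mean log2 signal of 3 18S probes was between 6.90 (4 h replicate 2) and 10.55 (4 h replicate 3). It was on the high side in 4 h replicates 1 and 3 and 16 h replicate 1, and on the low side in the others.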

Additional observations from a re-analysis of the deposited data

How the results depend on the processing

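With 3 arrays per time point, precision was limited by their number, and hormones at or below the background limit were given no change. Of the 13 hormone probes, 1 was called higher (Gcg, limma adjusted p = 0.0309 in both settings) with median scaling (log2 change 0.62) and with no between-array normalization (0.71), and 0 in every other setting run. All-probe counts of 2 higher and 2 lower became 19 and 10 without background correction, 832 and 0 with median scaling, 2308 and 0 with no between-array normalization, 0 and 2 with cyclic loess, 1 and 0 with trend and robust variance. They became 0 and 0 with an offset of 16, the filter on the background limit and a replicate block. The same held with the 18S side as a term and with each array left out (0 to 0). In these settings 1029 to 3209 probes had an unadjusted limma p under 0.05. The median detected probe moved by 0.30 with median scaling and by 0.39 without normalization between arrays. Directions turned for Sct (0.12 and 0.21) and Nts (0.18 and 0.27) in these settings in that order, for Tac1 with no between-array normalization (0.058), and for Cck with linear scaling (-0.053) and array weights (-0.016). The cause was not tested. With the replicate block the log2 change of Gcg was 0.35, and the block changed no call among the hormones. The 18S side as a term, high or low and from 18S probes only, gave log2 changes of 0.39 for Gcg, -0.15 for Nts and 0.087 for Cck.

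Leaving out each array gave log2 changes of 0.29 to 0.40 for Gcg, -0.14 to -0.06 for Sct, -0.093 to 0.11 for Cck, -0.36 to 0.031 for Nts (0.031 without 4 h replicate 3) and -0.27 to -0.19 for Tac1. The ratio to Gcg differed by -0.61 to -0.44 for Sct, -0.32 to -0.13 for Cck, -0.57 to -0.24 for Nts and -0.77 to -0.50 for Tac1. The ratio to the median detected probe differed by 0.03 to 0.23 for Gcg, -0.46 to -0.23 for Sct, -0.22 to 0.039 for Cck, -0.46 to -0.02 for Nts and -0.63 to -0.43 for Tac1. The intensity ratio of Tac1 was 0.917 to 1.15. The 5 detected probes stayed above the limit under the 95th percentile, the largest value and each array left out. Gcg had 1 probe, so a mean of Gcg probes could not be used as reference.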
